A study of Mus musculus with 12 samples.

Results

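Mouse embryonic fibroblasts that carried a hairpin RNA against p53 were compared, as 3 groups together, with fibroblasts that carried oncogenic RAS and no such hairpin. The cells came from C57BL/6 embryos and received viral vectors, and total RNA was read on 1-colour Agilent arrays. The 3 hairpin groups were cells with shp53 alone, cells given shp53 first and RASV12 second (called shp53-first here), and cells given RASV12 first and shp53 second (called RASV12-first here). The comparison group had RASV12 alone, so it is the only one whose p53 was not targeted, and it shares RASV12 with both 2-vector groups. Each group had 3 arrays, so 9 shp53-carrying arrays were set against 3 RASV12 arrays, and these 12 arrays are the whole series. The labels describe the replicates of a condition as independent. No group without any vector was used here, so a difference cannot be assigned to one vector from these arrays alone, and the labels do not say which RAS gene was used.

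p53 is a transcription factor that stressed cells stabilise, and its targets include the cell cycle inhibitor p21, encoded by Cdkn1a, its own inhibitor Mdm2 and several death receptors. In primary fibroblasts oncogenic RAS is known to bring on senescence, a lasting arrest in which p53 and p21 restrain cyclin-dependent kinases and the cells secrete cytokines, chemokines and proteases. E2F proteins and the DREAM complex govern most S phase and mitosis genes, with DREAM reaching mitosis genes through the CHR element of their promoters, and AP-1 is a transcription factor pair of Fos and Jun proteins that acts downstream of RAS.

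A level below is the log2 of a probe's processed signal after subtraction of the log2 of the 75th percentile of its array, and a difference is the mean of the 3 shp53-carrying group means minus the RASV12 mean, on the log2 scale, with limma's standard error. A gene is called when its Benjamini-Hochberg adjusted p over all genes tested is under 0.05 in limma. Between 56.6% and 62.4% of the spots of an array were well above background. Within each group 2 arrays were much closer to each other (Pearson's r over genes from 0.993 to 0.998) than to the remaining one (0.967 to 0.981); the arrays that stood apart were replicate 2 of shp53 and of RASV12 and replicate 1 of shp53-first and of RASV12-first. Xist, the RNA of the inactive X chromosome, was well above background on the shp53 and RASV12 arrays and not on the arrays with both vectors, which read the Y-linked genes Ddx3y and Eif2s3y instead. The cultures with both vectors thus differed from the other cultures in this respect, and genes of chromosomes X and Y were left out. For the remaining genes, effects of the vectors in the 2-vector groups cannot be told apart from other differences between these cultures and RASV12 cultures. All 12 fibroblast markers were above background on every array. Of 16 macrophage and leukocyte markers, 14 to 16 were above background on shp53 arrays, 5 to 7 on shp53-first arrays, 5 or 6 on RASV12-first arrays and 12 on each RASV12 array.

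Promoter sequences of 9 genes on which the results turn are given first. They are RefSeq sequences of build GRCm38.p6 from 250 bases before to 50 bases after a start site, read 5′ to 3′ on the strand of the gene. Il1a, Mmp13, Prl3d1 and Prl3d2, which stood far below RASV12 cells in all 3 hairpin groups, hold the AP-1 site TGAGTCA, shown in capitals on either strand.
Il1a (chr2:129309923-129310222, minus strand): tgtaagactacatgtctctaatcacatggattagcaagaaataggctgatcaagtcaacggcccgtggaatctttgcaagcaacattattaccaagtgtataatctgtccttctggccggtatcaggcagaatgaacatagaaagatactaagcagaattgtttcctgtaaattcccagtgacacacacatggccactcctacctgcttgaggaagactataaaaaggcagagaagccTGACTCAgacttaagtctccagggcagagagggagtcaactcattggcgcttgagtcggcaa
Mmp13 (chr9:7272264-7272563, plus strand): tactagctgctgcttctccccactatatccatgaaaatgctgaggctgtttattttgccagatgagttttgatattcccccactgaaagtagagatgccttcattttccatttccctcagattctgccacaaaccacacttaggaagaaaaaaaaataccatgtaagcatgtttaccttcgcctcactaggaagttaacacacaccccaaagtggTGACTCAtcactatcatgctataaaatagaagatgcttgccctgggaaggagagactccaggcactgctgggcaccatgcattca
Prl3d1 (chr13:27093939-27094238, plus strand): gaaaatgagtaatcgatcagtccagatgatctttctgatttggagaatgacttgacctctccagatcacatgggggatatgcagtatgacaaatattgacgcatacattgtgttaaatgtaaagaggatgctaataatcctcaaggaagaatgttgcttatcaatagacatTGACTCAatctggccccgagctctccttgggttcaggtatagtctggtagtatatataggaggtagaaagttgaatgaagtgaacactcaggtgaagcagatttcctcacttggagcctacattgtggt
Prl3d2 (chr13:27121445-27121744, plus strand): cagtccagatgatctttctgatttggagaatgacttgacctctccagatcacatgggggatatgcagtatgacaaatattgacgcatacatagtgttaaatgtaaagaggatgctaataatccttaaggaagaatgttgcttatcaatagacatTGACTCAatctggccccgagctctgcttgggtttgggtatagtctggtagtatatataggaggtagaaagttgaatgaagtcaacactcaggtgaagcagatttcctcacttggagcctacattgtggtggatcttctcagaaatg
The site begins at position -12 of Il1a, -35 of Mmp13, -79 of Prl3d1 and -96 of Prl3d2. The Prl3d1 and Prl3d2 stretches are close copies, so they are not separate examples. The site occurs in 5.20% of all 32851 promoters listed, in 4.03% of those of the genes tested and in 7.09% of those of the genes lower in all 3 hairpin groups. Of other genes far below RASV12 cells in all 3 groups, Prl8a9 holds it too. The windows listed for Mcpt1, Cxcl3, Serpinb2, Crisp1 and Crisp3 do not. This motif was added after values were seen, so the 4 printed genes are examples and not typical of the lower genes.

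Cenpa and Bub1b stand for the mitosis genes, and their capitals mark the CHR element TTTGAA and the CCAAT box CCAAT, each on either strand.
Cenpa (chr5:30666636-30666935, plus strand): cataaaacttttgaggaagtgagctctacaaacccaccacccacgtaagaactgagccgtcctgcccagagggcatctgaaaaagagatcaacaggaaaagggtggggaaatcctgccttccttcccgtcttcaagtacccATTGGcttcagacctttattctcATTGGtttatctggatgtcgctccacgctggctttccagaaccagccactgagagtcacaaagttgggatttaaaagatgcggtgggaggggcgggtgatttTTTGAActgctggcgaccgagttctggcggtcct
Bub1b (chr2:118597961-118598260, plus strand): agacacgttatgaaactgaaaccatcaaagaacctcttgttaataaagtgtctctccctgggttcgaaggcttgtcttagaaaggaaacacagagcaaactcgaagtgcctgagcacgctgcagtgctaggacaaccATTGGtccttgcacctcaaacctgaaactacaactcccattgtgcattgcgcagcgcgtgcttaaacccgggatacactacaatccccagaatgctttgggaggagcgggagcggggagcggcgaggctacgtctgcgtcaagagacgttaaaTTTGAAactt
Of 18 mitosis promoters listed, 66.7% hold TTTGAA and 83.3% hold CCAAT, against 17.9% and 37.4% of all promoters. E2f2 and Cdkn2c, which stood above RASV12 cells in all 3 hairpin groups, each have 2 starts listed, and at 1 of them the window holds an E2F site, shown in capitals, TTGGCGC in E2f2 and TTCCCGC in Cdkn2c. The windows at their other starts hold neither of these strings.
E2f2 (chr4:136172024-136172323, plus strand): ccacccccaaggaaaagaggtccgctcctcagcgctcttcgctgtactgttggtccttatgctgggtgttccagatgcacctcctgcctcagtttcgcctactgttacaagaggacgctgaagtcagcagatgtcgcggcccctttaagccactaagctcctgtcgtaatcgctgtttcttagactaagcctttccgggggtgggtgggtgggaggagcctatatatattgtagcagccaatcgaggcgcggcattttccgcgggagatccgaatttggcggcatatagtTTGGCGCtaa
Cdkn2c (chr4:109666707-109667006, minus strand): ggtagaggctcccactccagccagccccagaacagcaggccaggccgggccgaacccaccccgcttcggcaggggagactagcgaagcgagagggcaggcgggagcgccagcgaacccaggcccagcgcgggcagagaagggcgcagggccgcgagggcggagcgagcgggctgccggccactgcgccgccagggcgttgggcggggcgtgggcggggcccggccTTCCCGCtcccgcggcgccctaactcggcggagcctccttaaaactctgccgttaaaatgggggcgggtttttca
TTCCCGC occurs in 40.0% of 25 promoters of DNA replication genes, in 12.1% of those of the genes higher in all 3 hairpin groups and in 7.54% of those of the genes tested. Cdkn1a is shown for a pair of matches to the p53 half-site pattern searched, marked in capitals with the bases between them. The bases right after the capitals, tgacatgttc, depart from that pattern at the first base only and are not marked. Which of these stretches p53 binds was not tested.
Cdkn1a (chr17:29090729-29091028, plus strand): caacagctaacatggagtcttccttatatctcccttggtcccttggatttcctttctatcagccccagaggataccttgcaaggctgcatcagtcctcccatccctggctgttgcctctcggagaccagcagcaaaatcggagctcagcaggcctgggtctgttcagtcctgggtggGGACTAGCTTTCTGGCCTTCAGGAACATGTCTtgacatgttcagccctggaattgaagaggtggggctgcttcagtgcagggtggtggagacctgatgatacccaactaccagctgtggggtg
The pair lies before 1 of the 2 starts listed for Cdkn1a, and such a pair with at most 13 bases between was found in 24 of 32851 promoters. A match of letters is a description and no proof of binding.

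Of 13940 genes tested, 3969 (28.5%) were called between the shp53-carrying groups and RASV12, of which 1655 (11.9%) were higher and 2314 (16.6%) were lower. The median difference of all genes was -0.0496. A joint rule then asked that a gene be called in the pooled comparison and in each hairpin group against RASV12, all in 1 direction, and that none of the 9 shp53-carrying arrays overlap the 3 RASV12 arrays. The 9 arrays all lay above RASV12 for 686 genes (4.92%) and all below for 1053 (7.55%), and the whole rule was met by 732 genes (5.25%), of which 229 (1.64%) were higher and 503 (3.61%) lower. The 3 single comparisons share the RASV12 arrays, so the rule describes a pattern and is not 3 separate tests. A filter on dim probes kept those read on every array of at least 1 group. Genes read in RASV12 alone could thus only come out lower, and genes read in hairpin groups alone only higher. With probes well above background on all 12 arrays, 208 higher and 373 lower genes met the rule. At least 2-fold in each of the 3 groups were 92 of the higher and 253 of the lower genes, and at least 4-fold in each were 18 and 108. Among the lower genes the hairpin group nearest to RASV12 was shp53-first for 209, shp53 for 193 and RASV12-first for 101 genes. Averaging the 2 closest arrays of each group before the fit left 658 calls and 91 genes of the joint rule, 89 of them among the 732, and leaving out the 4 arrays that stood apart gave 8442 and 2573.

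**Figure D1:**
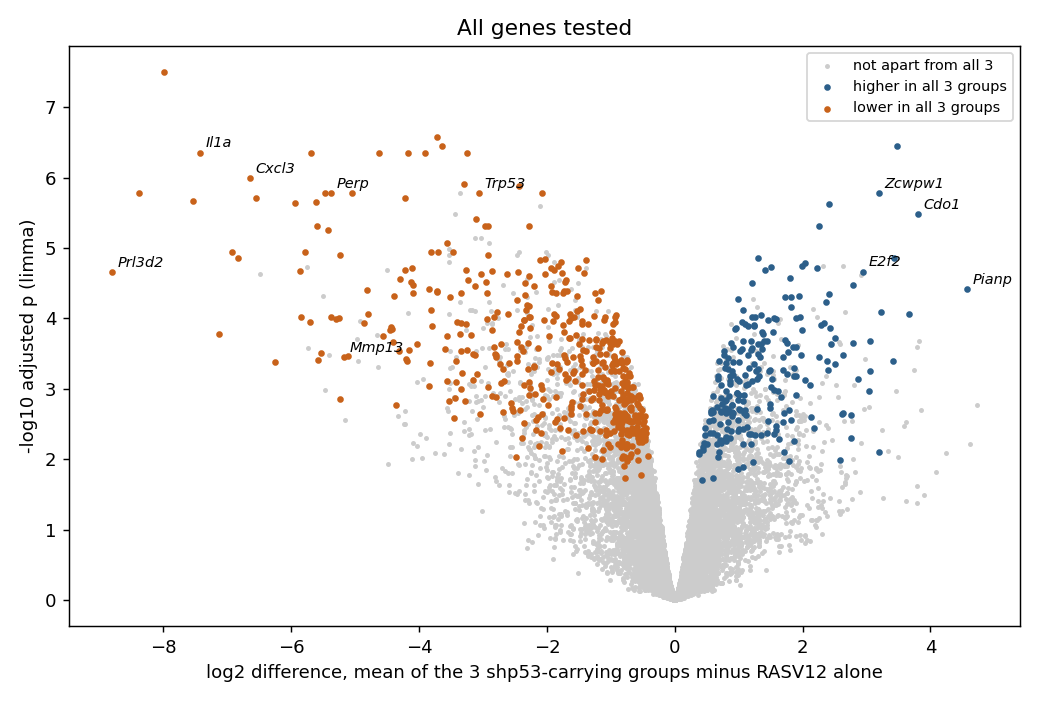
Each point is a gene tested, with the log2 difference of the mean of the 3 shp53-carrying groups minus RASV12 alone on the x axis and -log10 of limma's adjusted p on the y axis. Orange and blue points met the joint rule, 503 lower and 229 higher genes, and the lower ones reach further from 0 than the higher ones.

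The genes lowest in all 3 hairpin groups were led by a cytokine, placental hormones and secreted proteins of epithelia. Il1a, the secreted alarm cytokine interleukin 1 alpha, had levels of -8.32, -8.55 and -8.57 in shp53 cells, -8.31, -8.71 and -7.76 in shp53-first cells and -7.91, -8.38 and -8.57 in RASV12-first cells, against -0.36, -1.91 and -0.49 in RASV12 cells. It was well above background on the 3 RASV12 arrays and on none of the other 9, so its fold is a bound: at least 35.8-fold lower (adjusted p = 4.42e-07). Such bounds set the bright group's mean against the lowest signal read as well above background, or the dim probe's own where higher. Where some arrays of a hairpin group read a gene, that group entered the value over the 3 groups with its plain mean, dim arrays included. Values made in this way are called estimates below and can exceed a strict bound. Mcpt1, a mast cell protease, was likewise read only in RASV12 cells, at -1.02, -0.04 and -1.13, and was at least 39.1-fold lower with the hairpin (adjusted p = 1.14e-05). Il1a and Mcpt1 passed the filter on dim probes through RASV12 alone, so they could only come out lower. The same holds for Prl8a9, Cxcl3, Vmn2r78, Crisp1 and Crisp3 below.

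Prl3d1, which encodes the placental lactogen PL-I, had levels of -4.56, -4.33 and -4.54 in shp53 cells, -1.02, -1.09 and -1.40 in shp53-first cells and -5.24, -3.29 and -3.19 in RASV12-first cells, against 5.59, 4.25 and 5.75 in RASV12 cells. All 12 arrays read it, the groups did not overlap, and the shp53-first arrays lay closest to RASV12. The difference was -8.38 ± 0.43 (adjusted p = 1.66e-06). For its close copy Prl3d2, above background on 1 shp53 array, 3 shp53-first arrays and 2 RASV12-first arrays, the difference was -8.80 ± 0.69, and since probes for such copies may read each other's RNA the 2 values may not be separate. Prl8a9, another gene of the family, stood at 0.77, 0.26 and 0.80 in RASV12 cells. It was above background on no shp53 array, 2 shp53-first arrays and no RASV12-first array, an estimated 75-fold lower over the 3 groups together.

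Cxcl3, a chemokine that draws neutrophils, had levels of -6.12, -6.07 and -5.85 in shp53 cells, -5.07, -6.07 and -6.95 in shp53-first cells and -7.35, -7.55 and -8.03 in RASV12-first cells, against 0.09, -0.10 and 0.26 in RASV12 cells. It was above background on 1 shp53 array, 2 shp53-first arrays and no RASV12-first array. Over the 3 groups together it was an estimated 68.2-fold lower (adjusted p = 1.02e-06 in limma). Serpinb2, the plasminogen activator inhibitor type 2, had levels of -3.77, -5.51 and -3.56 in shp53 cells, -1.67, -1.99 and -2.08 in shp53-first cells and -3.65, -1.74 and -1.85 in RASV12-first cells, against 2.89, 3.02 and 3.05 in RASV12 cells. Its difference was -5.86 ± 0.46 (adjusted p = 2.15e-05). The remaining genes at this end were Vmn2r78, a vomeronasal receptor gene, Crisp1 and Crisp3, which encode cysteine-rich secretory proteins, and Lce1g and Crct1, genes of the cornified layer of the skin. Vmn2r78 and Crisp1 were above background on 1 of the 9 hairpin arrays and Crisp3 on 2, all 3 on each RASV12 array. Their estimates were 46.4-fold lower for Vmn2r78, 22.8-fold for Crisp1 and 87.1-fold for Crisp3, and these are not strict bounds. Lce1g and Crct1 were read on every array and differed by -6.25 and -5.62. Lce1g was less far apart on RASV12 replicate 2, at 1.55, than on the other RASV12 arrays, at 3.77 and 3.75.

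**Figure D2:**
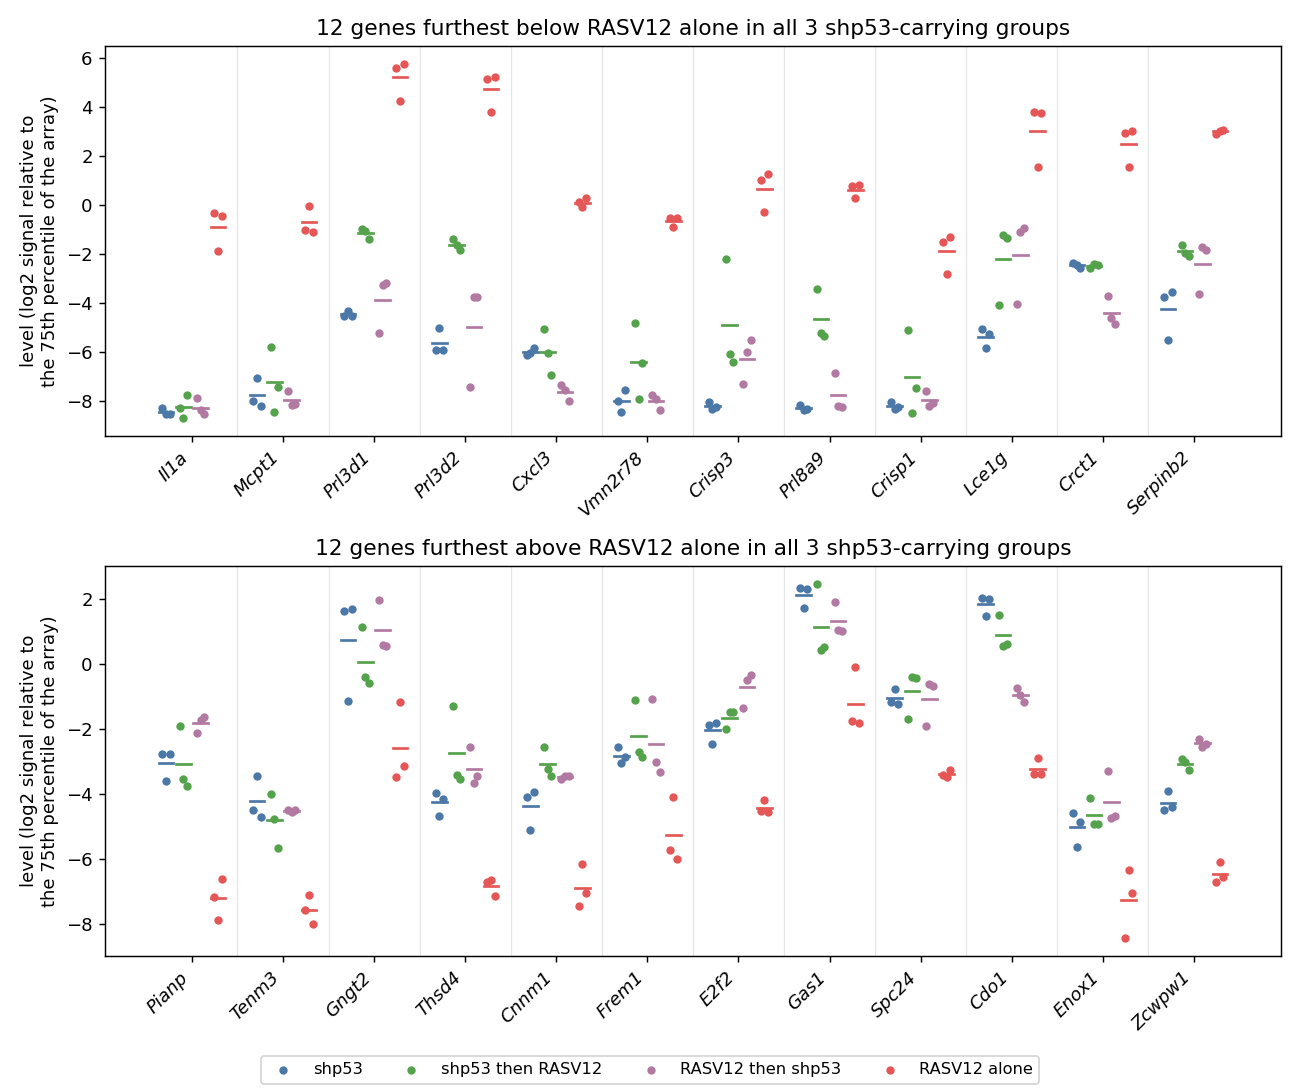
Points are levels per array (log2, with the 75th percentile of the array at 0) and short lines are group means, for the 12 genes furthest below (top) and above (bottom) RASV12 in all 3 hairpin groups. For each gene the 3 RASV12 points lie outside the 9 others, and Gngt2 has the narrowest gap.

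The genes highest in all 3 hairpin groups held a transcription factor of S phase, a kinetochore protein and several membrane and matrix proteins. E2f2, an activator of S phase genes, had levels of -1.87, -2.45 and -1.81 in shp53 cells, -2.0, -1.47 and -1.47 in shp53-first cells and -1.34, -0.48 and -0.33 in RASV12-first cells, against -4.52, -4.19 and -4.55 in RASV12 cells. The difference was 2.95 ± 0.23 (adjusted p = 2.18e-05). Spc24, a subunit of the NDC80 kinetochore complex, lay between -1.89 and -0.39 on the 9 hairpin arrays, against -3.41, -3.46 and -3.26 in RASV12 cells, a difference of 2.40 ± 0.32 (adjusted p = 0.000549). Cdo1, cysteine dioxygenase, had levels of 2.03, 1.48 and 2.0 in shp53 cells, 1.51, 0.55 and 0.61 in shp53-first cells and -0.74, -0.96 and -1.16 in RASV12-first cells, against -3.39, -2.90 and -3.37 in RASV12 cells. Its difference was 3.81 ± 0.22 (adjusted p = 3.3e-06), and it graded among the 3 hairpin groups, with a range of 2.79 between their means.

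Zcwpw1, a reader of histone methylation that acts in meiosis, was below background on the 3 RASV12 arrays and was at least 6.71-fold higher with the hairpin (adjusted p = 1.66e-06). Its level was -4.50, -3.90 and -4.39 in shp53 cells, -2.93, -3.00 and -3.27 in shp53-first cells and -2.31, -2.55 and -2.45 in RASV12-first cells, against -6.71, -6.09 and -6.55 in RASV12 cells. Pianp, a neural membrane protein and ligand of an inhibitory immune receptor, was at least 10.3-fold higher. Bounds of at least 2.81-fold for Tenm3, a teneurin, 6.03-fold for Thsd4, a matrix protein of microfibrils, 5.13-fold for Cnnm1, of a family of metal transport mediators, and 2.57-fold for Enox1, a cell surface oxidase, rested on RASV12 arrays without a reading above background. Such genes passed the filter on dim probes through hairpin groups alone, so they could only come out higher. Gas1, a growth arrest protein and hedgehog co-receptor, differed by 2.76 ± 0.48 and Frem1, a basement membrane protein, by 2.76 ± 0.56. For both, RASV12 replicate 2 lay nearest to the hairpin arrays, at -0.10 for Gas1 against -1.76 and -1.81 on the other RASV12 arrays. The same array left Gngt2, a G protein gamma subunit of photoreceptors, with a gap of only 0.0268 between groups, and its difference was 3.19 ± 0.71 (adjusted p = 0.0079).

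Among the genes of the joint rule, 347 of 732 (47.4%) also differed among the 3 hairpin groups by an F test (adjusted p under 0.05), against 6931 (49.7%) of all genes tested. Standing apart from RASV12 in 1 direction thus did not mean equal levels. Among genes read on every array, Spc24 had a range of 0.231 between the hairpin group means and Ccng1 one of 0.165, whereas Perp had one of 3.03 and Cxcl5 one of 4.68. The range of the 3 means was smaller than the smallest difference from RASV12 for 356 of the lower and 163 of the higher genes. In all 25 alternative settings that give the joint rule at an adjusted p under 0.05 with no fold limit, 10 of the lower and 3 of the higher genes met it. The settings with an adjusted p under 0.01 or at least 2-fold were not among the 25. The lower ones were Crct1, Serpinb2, Perp, Cxcl5, Crip2, Tbc1d2, Ttc12, Xrcc5, Plau and Enah, and the higher ones were E2f2, Cdo1 and Cdkn2c, named here after their values were seen.

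Trp53, the target of the hairpin, had levels of -3.22, -3.55 and -3.06 in shp53 cells, -3.98, -3.43 and -3.44 in shp53-first cells and -4.14, -4.01 and -3.83 in RASV12-first cells, against -0.35, -0.75 and -0.58 in RASV12 cells. All 9 hairpin arrays lay below the 3 others, as their labels imply, with a difference of -3.06 ± 0.16 (adjusted p = 1.66e-06). Of 74 p53 targets tested, 39 fell, 4 rose and 31 were not called, with a median difference of -0.562. 15 of them fell in all 3 hairpin groups and none rose in all 3. Of all genes tested 16.6% fell and 11.9% rose, and 3.61% fell and 1.64% rose in all 3 groups. The list counts here and below are to be read against these shares. Of the genes that act on p53 itself, Mdm2, its ubiquitin ligase and target, had levels of 3.99, 3.78 and 4.05 in shp53 cells, 4.15, 4.10 and 4.13 in shp53-first cells and 4.57, 4.71 and 4.88 in RASV12-first cells, against 5.54, 5.88 and 5.6 in RASV12 cells (-1.41 ± 0.11, adjusted p = 2.25e-05). In that list of 21, the phosphatase Ppm1d and the ligase Cop1 rose and the p53 inhibitor Ppp1r13l fell.

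Among 15 targets that arrest the cell cycle or feed back on p53, 10 fell and 1 rose. Cdkn1a, the inhibitor p21, had levels of 2.58, 2.14 and 2.61 in shp53 cells, 2.85, 2.69 and 2.88 in shp53-first cells and 2.52, 2.25 and 2.33 in RASV12-first cells, against 3.52, 3.82 and 3.64 in RASV12 cells. The difference of Cdkn1a was -1.12 ± 0.13 (adjusted p = 0.00021), and no array overlapped. Ccng1, cyclin G1, differed by -1.53 ± 0.15 with levels of 2.38 to 3.09 on the hairpin arrays, against 4.22, 4.59 and 4.39 in RASV12 cells. Plk2, a stress kinase, fell by 2.07 ± 0.31.

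Of 16 targets in cell death, 8 fell and none rose. Perp, a membrane protein of desmosomes and apoptosis, had levels of 0.03, -0.61 and 0.17 in shp53 cells, 0.64, -0.60 and -0.86 in shp53-first cells and -3.15, -3.27 and -3.08 in RASV12-first cells, against 4.23, 4.06 and 4.26 in RASV12 cells. This was the target with the most negative difference, -5.37 ± 0.28 (adjusted p = 1.66e-06), and RASV12-first cells lay furthest below. For the death receptor Fas too RASV12-first cells lay furthest below, with -0.82 for shp53, -0.67 for shp53-first and -2.11 for RASV12-first against RASV12. Another death receptor, Tnfrsf10b, had close differences in the 3 groups, -1.16, -0.96 and -1.07 in that order. Bax fell by 0.42 ± 0.10 (adjusted p = 0.0108), while Bbc3, which encodes the death activator Puma, differed by -0.09 ± 0.20 (adjusted p = 0.776).

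Of 18 targets in repair and metabolism, 7 fell and 2 rose, and of 25 others 14 fell and 1 rose. Ak1, adenylate kinase, differed by -0.92 ± 0.09 and Epha2, a receptor kinase for ephrins, by -2.27 ± 0.24, both lower in all 3 groups. Sesn1, a stress sensor of the mTOR pathway, stood against this direction, with levels of 0.52, -0.04 and 0.46 in shp53 cells, -0.90, -0.65 and -0.97 in shp53-first cells and -0.40, -0.50 and -0.58 in RASV12-first cells, against -1.31, -1.19 and -1.41 in RASV12 cells (0.96 ± 0.13, adjusted p = 0.000667). Sesn2 (-0.16 ± 0.23) and Zmat3 (-0.29 ± 0.10) were not called, with adjusted p of 0.65 and 0.0563. With the closest arrays averaged, 11 of the 74 targets fell and 4 did so in all 3 groups.

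**Figure D3:**
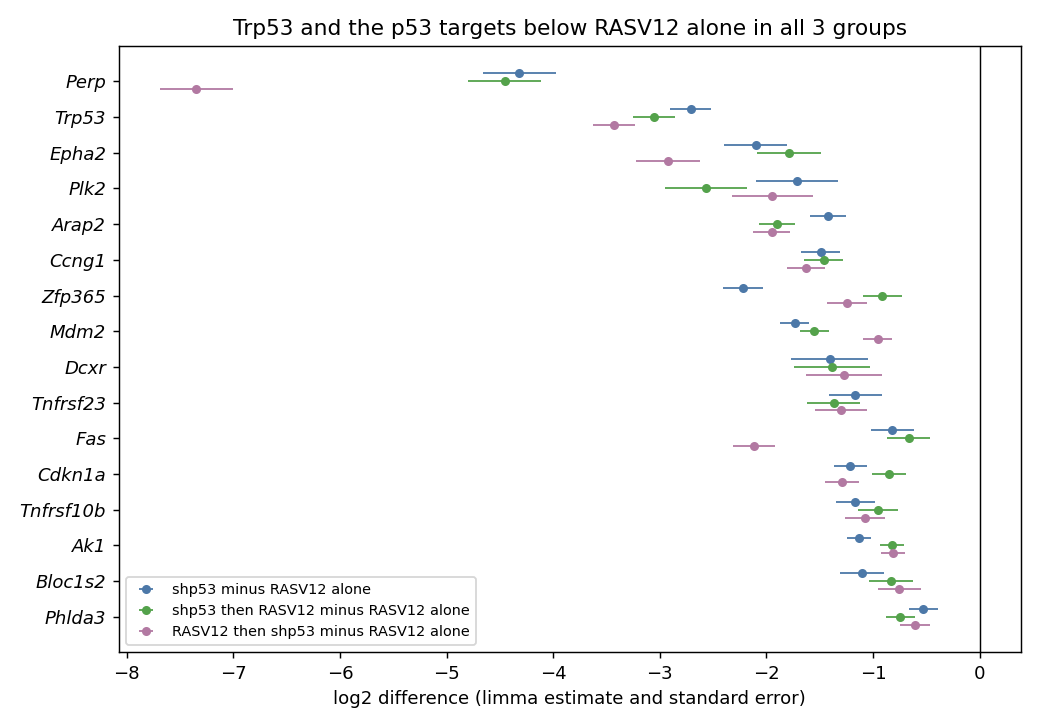
Points are limma's log2 differences of each hairpin group minus RASV12 alone, with standard errors, for Trp53 and the 15 p53 targets lower in all 3 groups. All lie left of 0, and for Perp, Fas and Epha2 the RASV12-first group lies furthest left.

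Among 24 CDK inhibitors, cyclins and E2F genes of G1, 8 rose and 3 fell, and 4 rose in all 3 groups. Besides E2f2 these were 3 inhibitors of cyclin-dependent kinases, Cdkn2c, Cdkn1b and Cdkn2d, whose products p18, p27 and p19 restrain the cell cycle. Cdkn2c had levels of 0.13, 0.34 and 0.18 in shp53 cells, -0.26, -0.13 and -0.02 in shp53-first cells and -0.25, -0.01 and 0.27 in RASV12-first cells, against -1.66, -2.11 and -1.56 in RASV12 cells (1.80 ± 0.15, adjusted p = 2.68e-05). For Cdkn1b the difference was 1.90 ± 0.23. Cyclin D1, Ccnd1, fell by 0.91 ± 0.14 and was not lower in all 3 groups, while Cdkn2a (0.24 ± 0.21) and Cdkn2b (-0.46 ± 0.26), the inhibitors of the Ink4 locus, were not called.

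Mitosis genes rose together: 14 of 23 were called higher and none lower, with a median difference of 1.49. Only Cenpa, the centromere histone whose promoter is printed above, was higher in all 3 groups. Its levels were 0.38, 0.63 and 0.58 in shp53 cells, -0.42, 1.30 and 1.15 in shp53-first cells and 0.25, 1.58 and 1.68 in RASV12-first cells, against -0.92, -1.01 and -0.80 in RASV12 cells (1.70 ± 0.38, adjusted p = 0.00782). Replicate 1 of both 2-vector groups lay lower than its group mates, and this held for the list: its median level was 1.11, 1.63 and 1.17 in shp53 cells, 0.26, 2.36 and 2.36 in shp53-first cells and 0.69, 2.98 and 2.94 in RASV12-first cells, against 0.09, -0.27 and 0.15 in RASV12 cells. Mki67, the proliferation antigen, differed by 1.58 ± 0.52 (adjusted p = 0.0449), and Ccnb1, cyclin B1, by 1.5 ± 0.53 (adjusted p = 0.059). Without replicate 1 of shp53-first cells 22 of the 23 were called, and without the 4 arrays that stood apart 23 were, 21 of them higher in all 3 groups. Leaving out any other array except RASV12-first replicate 1 left 3 to 7, and averaging the closest arrays left 0, with 14 in the fit of all arrays.

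DNA replication genes rose as well, 9 of 26 with none lower and a median difference of 0.894, but none was higher in all 3 groups. Cdt1, which loads the replicative helicase, had levels of 1.53, 1.96 and 1.56 in shp53 cells, 3.05, 3.51 and 3.40 in shp53-first cells and 3.35, 4.23 and 4.26 in RASV12-first cells, against 1.69, 1.42 and 1.83 in RASV12 cells. The shp53 arrays overlapped RASV12, and the pooled difference of 1.33 ± 0.21 came from both 2-vector groups (0.03, 1.67 and 2.30 in the order above). Prim1, the primase subunit, showed the same order, at 0.34, 2.01 and 2.85. The count was 5 without RASV12 replicate 2, 17 without shp53-first replicate 1 and 19 without RASV12-first replicate 1, and 0 with the closest arrays averaged. Of 14 lamins and chromatin proteins linked to senescent nuclei, 6 rose and 1 fell. Hmgb1, a chromatin protein that senescent cells release, rose by 0.79 ± 0.13 in the pooled comparison and was higher in all 3 groups. Lmnb1, lamin B1, differed by 1.12 ± 0.48 (adjusted p = 0.107 in limma).

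**Figure D4:**
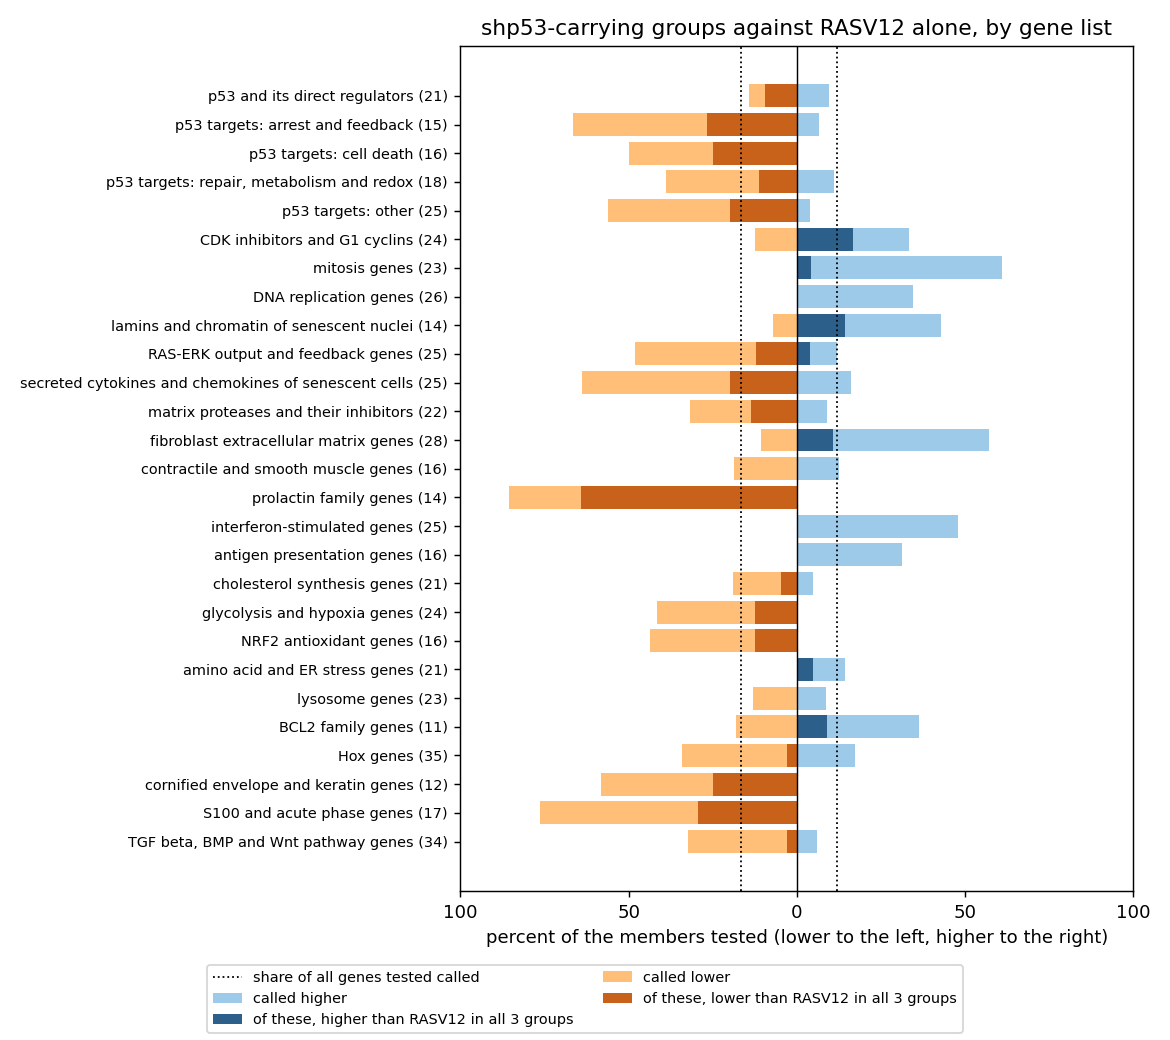
Bars give the percent of each list's tested members (number in brackets) called lower (left) and higher (right) in the shp53-carrying groups against RASV12, with the members apart in all 3 groups in the darker shade. Dotted lines are the shares of all genes tested, 16.6% lower and 11.9% higher; the prolactin list, the S100 list and the p53 targets of arrest reach furthest left and the mitosis and matrix lists furthest right.

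Secreted factors of senescent cells were mostly called lower in the pooled comparison: 16 of 25 cytokines, chemokines and binding proteins fell and 4 rose, with a median difference of -1.53. Il1a, Cxcl3, Cxcl5, Cxcl2 and the macrophage growth factor Csf1 were lower in all 3 groups. Cxcl5, a ligand of the chemokine receptor CXCR2, had levels of 2.54, 1.76 and 2.64 in shp53 cells, 3.21, 2.30 and 2.07 in shp53-first cells and -3.08, -1.86 and -1.53 in RASV12-first cells, against 6.25, 6.44 and 6.24 in RASV12 cells (-5.42 ± 0.34, adjusted p = 5.57e-06). Igfbp7, an insulin-like growth factor binding protein, fell by 1.53 ± 0.15 in the pooled comparison although shp53 cells differed from RASV12 by only 0.19. The list's median level was 2.76 on RASV12 replicate 2 and 0.41 and 0.46 on the other RASV12 arrays. It was 0.94, -0.18 and 0.97 in shp53 cells and 2.65, 2.30 and 2.30 in shp53-first cells. In RASV12-first cells it was 0.31, -0.64 and -0.69, so only that group lay below all RASV12 arrays. With the closest arrays averaged 9 members fell.

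Of 22 matrix proteases and inhibitors, 7 fell and 2 rose. Mmp13, a collagenase whose promoter is printed above, had levels of -0.53, -2.0 and -0.45 in shp53 cells, 1.33, -1.67 and -1.30 in shp53-first cells and 1.67, -0.29 and -0.44 in RASV12-first cells, against 4.79, 4.68 and 4.83 in RASV12 cells (-5.18 ± 0.65, adjusted p = 0.000353). Replicate 1 of both 2-vector groups lay closest to RASV12, and no array overlapped. Plau, the urokinase activator of plasminogen, fell by 2.10 ± 0.15 in the pooled comparison. It was lower in all 3 groups, by 1.35 in the group nearest to RASV12.

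Prolactin family genes, a cluster of hormone genes of the rodent placenta and pituitary, fell almost as a whole: 12 of the 14 tested, 9 of them in all 3 groups, with a median difference of -3.50, and the other 12 of the 26 listed could not be tested (9 too dim, 3 with no probe named). Prl2c1 had levels of 1.11, 0.60 and 0.97 in shp53 cells, 2.95, 3.81 and 4.00 in shp53-first cells and -0.99, -1.54 and -1.41 in RASV12-first cells, against 4.28, 4.96 and 4.36 in RASV12 cells. Shp53-first cells came closest to RASV12 (-0.94) and RASV12-first cells lay furthest below (-5.85). A filter on dim probes that many of these genes pass through RASV12 alone had to leave lower genes, and the family holds close copies, so the count is a description. The trophoblast markers Gcm1 and Krt18 were above background on every array, Tpbpa, Cdx2, Elf5 and Ctsq on none and Psg17 on all 3 RASV12 arrays alone. Of 12 such markers 4 or 5 were above background on shp53 and RASV12-first arrays, 5 on shp53-first and 5 to 7 on RASV12 arrays. Their summed linear level was 30.1 to 35.7 in shp53 and 44.1 to 80.8 in shp53-first cells. It was 46.7 to 90.9 in RASV12-first and 31.3 to 43.4 in RASV12 cells. Of the 6 tested 2 fell and 1 rose, with a median difference of -1.30. Among them Eomes was lower in all 3 groups (-1.89 ± 0.19), and the part of such cells in the results was not tested.

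S100 and acute phase genes had 13 of 17 members lower and none higher, with 5 lower in all 3 groups and a median difference of -1.80. Saa2, a serum amyloid protein, was above background on no shp53 and no RASV12-first array and was at least 5.68-fold lower over the 3 groups, with levels of -3.82, -4.55 and -4.90 in shp53-first cells, against -2.98, -3.26 and -2.83 in RASV12 cells. Saa1 and Lcn2, the iron-binding lipocalin 2, fell in the pooled comparison (-3.53 ± 0.35 and -4.65 ± 0.52) but not in shp53-first cells, whose differences from RASV12 were -0.28 and -0.42. S100b, a calcium-binding protein, was read in every group but RASV12-first, which was at least 167-fold lower. S100b is also 1 of 14 neural and glial markers, of which 8 were above background on shp53 arrays, 10 or 11 on shp53-first and 5 on RASV12-first arrays, against 9 on RASV12 arrays. Their summed linear level was 12.6 to 16.5 in shp53, 11.1 to 14.3 in shp53-first and 5.04 to 12.3 in RASV12-first, against 17.5 to 24.2 in RASV12 cells, so RASV12 lay above all 9 other arrays. Of the 8 neural and glial markers tested 5 fell and 1 rose, with S100b and the neuronal gene Stmn2 lower in all 3 groups and a median difference of -2.88. Gfap and Elavl3 were above background on no array, and the part of such cells in the results was not tested. Of 21 cornified envelope and keratin genes listed, 8 were too dim and 1 had no probe named; of the 12 tested 7 fell and 3 did so in all 3 groups, a count to which the same limit of the filter on dim probes applies. Of these 3, Krt20, a keratin of simple epithelia, fell by 3.27 ± 0.25, Lor, loricrin, fell by 1.82 ± 0.14 and Lce1e fell by 4.80 ± 0.47. The epithelial markers Epcam, Cdh1, Cldn4, Grhl2 and Ovol1 were above background on no array; the summed linear level of the 12 epithelial markers ran from 1.33 to 1.55 in shp53, 1.73 to 11.6 in shp53-first and 1.83 to 10.0 in RASV12-first, against 7.62 to 7.93 in RASV12 cells, and its part in these results was not tested.

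**Figure D5:**
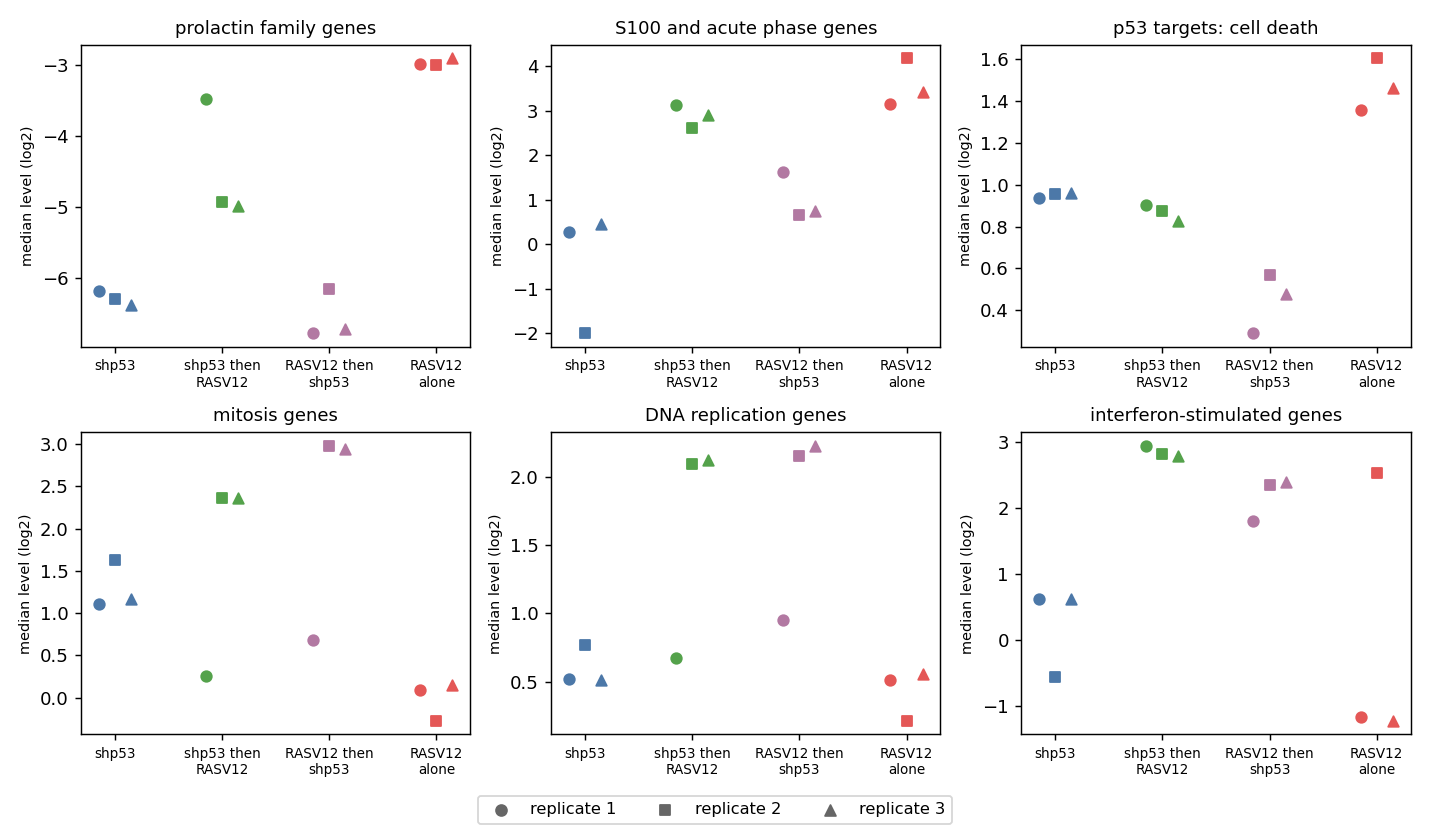
Points give the median level of 6 gene lists on each array (log2, with the 75th percentile of the array at 0), with the replicate as the marker. RASV12 replicate 2 lies with the 2-vector arrays for interferon-stimulated genes, and replicate 1 of the 2-vector groups lies below its group mates for mitosis and DNA replication genes.

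Of 25 output and feedback genes of the RAS-ERK pathway, 12 fell and 3 rose. Ereg and Hbegf, ligands of EGF receptors, fell in all 3 groups, with Ereg at 0.63, 0.29 and 0.68 in shp53 cells, 3.79, 2.67 and 2.75 in shp53-first cells and 1.34, 2.27 and 2.32 in RASV12-first cells, against 4.20, 4.15 and 4.13 in RASV12 cells (-2.30 ± 0.27). Spry1, a feedback inhibitor of the pathway, went the other way in all 3 groups. Its levels were 3.97, 3.02 and 3.95 in shp53 cells, 2.55, 2.21 and 2.18 in shp53-first cells and 2.72, 1.54 and 1.48 in RASV12-first cells, against 0.12, 0.36 and 0.06 in RASV12 cells (2.44 ± 0.28, adjusted p = 0.000231). Lif, a cytokine of the interleukin 6 family, differed mainly in shp53 cells, by -4.46, against -0.64 and -0.83 in the 2-vector groups. Hras itself fell by 0.88 ± 0.21, and whether its probe reads the vector's RNA was not tested.

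Fibroblast matrix genes had 16 of 28 members higher and 3 lower, with a median difference of 1.01. Col6a2, a collagen VI chain, had levels of 1.91, 1.95 and 1.90 in shp53 cells, 0.92, -0.08 and 0.02 in shp53-first cells and 2.67, 0.85 and 1.15 in RASV12-first cells, against -2.17, -0.74 and -1.91 in RASV12 cells (2.86 ± 0.41, adjusted p = 0.000731). Fbn2, fibrillin 2, rose by 5.18 in shp53 cells and by 1.36 and 1.35 in the 2-vector groups. Aspn, asporin, rose by 4.73 ± 0.78 in the pooled comparison, but RASV12 replicate 2, at -3.24, overlapped the shp53-first arrays. Mfap5, a microfibril protein, was higher in shp53 cells (1.73) and lower in both others (-3.26 and -5.35). Without RASV12 replicate 1 or replicate 3, 8 of the 28 were called higher, and with the closest arrays averaged 2 were.

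Interferon-stimulated genes were called higher for 12 of 25 with none lower, but RASV12 cells did not hold together: the list's median level was 2.54 on RASV12 replicate 2 and -1.15 and -1.21 on the other RASV12 arrays. In the hairpin groups it was 0.63, -0.56 and 0.63 in shp53 cells, 2.95, 2.82 and 2.79 in shp53-first cells and 1.81, 2.35 and 2.41 in RASV12-first cells. Irf7, the interferon regulator, showed this split with -4.16, -0.28 and -4.15 in RASV12 cells, a pooled difference of 2.69 ± 0.70 (adjusted p = 0.0166). No member met the joint rule. Without RASV12 replicate 2, 22 were called and 19 were higher in all 3 groups; without replicate 1 or replicate 3 of RASV12 none was, and averaging the closest arrays also left none. Without a replicate 1 or 3 of shp53, 6 were called, and without a replicate 2 or 3 of either 2-vector group 7 were. Of 16 antigen presentation genes 5 rose and none fell, among them the transporter Tap1 and the immunoproteasome subunits Psmb8 and Psmb9, all in the 2-vector groups and not in shp53 cells (-0.34 for Tap1, -0.17 for Psmb8 and 0.36 for Psmb9); without RASV12 replicate 1 or replicate 3 the count was 2.

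Metabolic and stress genes were mostly lower where called. Of 24 glycolysis and hypoxia genes 10 fell and none rose, and 3 fell in all 3 groups. These were the carbonic anhydrase Car9 (-2.43 ± 0.27), aldolase A, Aldoa (-0.70 ± 0.16), and glucose phosphate isomerase, Gpi1 (-0.82 ± 0.19). Aldoa had levels of 6.66, 6.50 and 6.72 in shp53 cells, 6.83, 6.41 and 6.66 in shp53-first cells and 7.0, 6.42 and 6.20 in RASV12-first cells, against 7.27, 7.29 and 7.33 in RASV12 cells. Leaving out an array of RASV12 left 3 to 6 of the 10, leaving out RASV12-first replicate 1 gave 19, and averaging the closest arrays left 1. Of 16 NRF2 antioxidant genes 7 fell and none rose, with the heme oxygenase Hmox1 lower by 1.54 ± 0.31 and highest on RASV12 replicate 2, at 5.10 against 4.20 and 4.20; 4 fell without that array. The NRF2 list as a whole was also highest there, with a median level of 2.39, against 1.30 and 1.40 on the other RASV12 arrays. Of 21 cholesterol synthesis genes 4 fell and 1 rose, of 21 amino acid and ER stress genes 3 rose and none fell, and of 23 lysosome genes 3 fell and 2 rose, shares near or below those of all genes. Glb1, the senescence-associated beta-galactosidase, fell by 0.54 ± 0.18 (adjusted p = 0.049).

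Among patterning genes, 12 of 35 Hox genes fell and 6 rose, yet only Hoxc11 did so in all 3 groups. Hoxa11, a gene of the limb, was close to RASV12 in shp53 and shp53-first cells (-0.93 and -0.30) and above background on no RASV12-first array, at least 117-fold lower there, so its pooled call describes 1 group. The 6 higher calls were 0 without RASV12 replicate 1 or replicate 3, 1 without RASV12 replicate 2 and 1 or 2 without replicate 1 or 3 of shp53 or replicate 2 or 3 of a 2-vector group. Of 34 TGF beta, BMP and Wnt genes 11 fell and 2 rose. Grem1, which blocks BMPs, fell by 1.92 ± 0.25 in the pooled comparison and was lower in all 3 groups. Inhba, the activin subunit, fell by 1.37 ± 0.21. Of 11 BCL2 family genes 4 rose and 2 fell, with Bcl2l13 higher in all 3 groups (0.87 ± 0.13) and the survival gene Bcl2l1 lower by 0.69 ± 0.13. Of 16 contractile genes 2 rose and 3 fell, near the 11.9% and 16.6% of all genes tested. Ctss, a lysosomal protease among the macrophage markers, had levels of 4.12, 0.09 and 4.16 in shp53 cells, -7.03, -8.53 and -7.53 in shp53-first cells and -7.68, -6.95 and -7.57 in RASV12-first cells, against -2.0, -0.64 and -1.88 in RASV12 cells. The summed linear level of the macrophage and leukocyte markers was 14.3 to 138 in shp53, 9.01 to 12.5 in shp53-first and 6.06 to 9.28 in RASV12-first, against 10.1 to 22.0 in RASV12 cells; Ptprc, the leukocyte antigen CD45, was above background on shp53 arrays alone, and the part of such cells in the results was not tested. In bulk RNA fewer cells of a type and less RNA per cell cannot be told apart.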

How the data were processed

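Per the labels' protocols, Cy3-labelled cRNA from 100 ng of total RNA was hybridised to 1-colour Agilent arrays. Each deposited scanner file gives processed signal intensity per spot, already background-corrected by the scanner software, Feature Extraction (version 10.7.3.1 per the submitters' processing notes; 11.5.1.1 per the file headers). The authors' deposited value table is on a log2 scale and served as an alternative. The level of a probe is log2 of processed intensity minus the array's 75th percentile over 43020 non-control spots. Outlier spots (1717 values) were left out; no spot was saturated. A probe was kept if some group had it well above background on each of its 3 arrays, and the brightest kept probe stood for a gene. RefSeq accessions named 28335 of 39429 probes, 11094 had no name, and 507 genes of X and Y were left out. For 62 genes an array without a value was left out of the fit.

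One limma model (limma 3.58.1 in R 4.3.3) with 1 mean per group was fitted to all 12 arrays, with eBayes; the contrast weighted the 3 shp53-carrying groups equally. The step was tested on simulated data. Members and lists were chosen with earlier results of these data known, so counts over lists are descriptions. Named genes are the 12 furthest each way under the joint rule (by the smallest of the 3 differences, leaving out clone names), up to 4 of each list by adjusted p and a set of p53 and senescence genes; others are named for their role in a count. The AP-1, E2F and TATA motifs and the paired p53 site were added after values were seen. Alternatives covered scaling, background, filters, probes, thresholds, blocks and left-out arrays. The 3 slides each hold 1 array of each group and carry the replicate number, so slide, scan and replicate blocks are the same fit. Precision is limited by 3 arrays a group, and p-values measure only the spread between these samples.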

Additional observations from a re-analysis of the deposited data

Results flagged for a closer look

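Outside the genes tested, 28 of 507 genes of chromosomes X and Y (5.52%) met the joint rule, a share near the 5.25% of all genes tested. Of the 28, 25 were lower and 3 higher in the shp53-carrying groups, where 3.61% and 1.64% of all genes tested were. In the pooled comparison 138 of the 507 were called lower and 32 higher, against 16.6% and 11.9% of all genes tested. The X and Y genes thus leaned further to lower than all genes did. These genes are counted apart because the 2-vector cultures differ from the single-vector cultures in Xist and Y-linked genes. Both 2-vector groups differed from RASV12 cells in this respect and shp53 cells did not, and its part in these genes was not tested.

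Of 4808 probes with no gene name tested, 169 (3.51%) met the joint rule, 68 higher and 101 lower, against 5.25% of the genes tested.

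The 3 hairpin groups differed among themselves by an F test for 347 of the 732 genes of the joint rule, so their effects against RASV12, which share the RASV12 arrays, were unequal for these.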

How the results depend on the processing

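The counts depend on how much the close pairs of arrays are trusted. From 3969 genes called and 732 of the joint rule, averaging the 2 closest arrays of each group left 658 and 91, with 28.6% of calls higher against 41.7%. Leaving out the 4 arrays that stood apart gave 8442 and 2573. Leaving out 1 array gave 2270 to 4842 and 437 to 898; the fewest came without RASV12 replicate 3 (2270 and 437) and replicate 1 (2279 and 439). A fit of 9 against 3 arrays as 2 groups called 792. An adjusted p under 0.01 left 2050 and 331, and a change of at least 2-fold 1700 and 345. Normexp background correction on median signals (mean signals were not used here) left 350 and 37, and with 75 extreme local backgrounds replaced, chosen after seeing the data, 2862 and 477. Deviations of same-numbered arrays correlated at 0.323 to 0.601 between the 2-vector groups but at -0.344 to 0.262 between a hairpin group and RASV12, so the numbers were not taken to pair the samples, and not every array correlated best with its own number; with the replicate block 4081 genes were called and 732 met the joint rule, 669 of them shared. Array medians in place of the 75th percentile shifted the median of all genes to 0.0167, gave 3294 and 560, and 49.6% of calls higher.

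Of 137 named genes, 129 were called, 25 of them in every setting in which they were fitted, and 10 changed sign in some setting. Under normexp the difference was -0.0633 for Cop1, 0.21 for Saa2, 0.79 for Hoxc11, 0.54 for Tnfrsf18, 0.64 for Rrm2b, 0.43 for Lmod1, 0.60 for Ctss (0.0412 with backgrounds replaced) and -0.11 for Cdkn2a. Sesn2 was 0.0206 without the arrays that stood apart and ran from -0.404 (without RASV12 replicate 3) to 0.0918 (without RASV12 replicate 2) with 1 array left out, where Bbc3 ran from -0.187 (without RASV12 replicate 1) to 0.0188 (without RASV12 replicate 2). The causes were not tested. Probes dim in a group give only bounds, or estimates where some arrays of that group read them.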

Other observations

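Beyond the lists, 2 genes of meiotic cohesin were higher in all 3 hairpin groups, named after their values were seen. Stag3 had levels of -2.74, -2.44 and -2.63 in shp53 cells, -1.82, -2.13 and -2.45 in shp53-first cells and -0.77, -2.23 and -2.12 in RASV12-first cells, against -4.30, -4.19 and -4.74 in RASV12 cells (2.26 ± 0.28, adjusted p = 0.000353). Smc1b was above background on all 9 hairpin arrays and on no RASV12 array, and was at least 6.60-fold higher.

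Ppbp, a platelet chemokine gene, had the smallest adjusted p of the lower genes (3.18e-08). Its levels were -0.93, -0.11 and -0.72 in shp53 cells, against 2.65, 2.53 and 2.91 in RASV12 cells, and it was above background on no array of the 2-vector groups. Hsd3b1, an enzyme of steroid synthesis, and Nkx2-9, a homeobox gene, were read in RASV12 cells alone, at least 5.56-fold and 5.96-fold lower with the hairpin. Esr1, the oestrogen receptor, was above background on all 9 hairpin arrays and on no RASV12 array, at least 5.75-fold higher. Smc1b, Hsd3b1, Nkx2-9 and Esr1 passed the filter on dim probes through 1 side alone, which fixed their direction.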
